A study of Mus musculus with 7 samples.

Results

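The genes described here encode 8 secreted cytokines: tumor necrosis factor (Tnf), interleukin-6 (Il6), oncostatin M (Osm), interleukin-10 (Il10), the p19 chain of interleukin-23 (Il23a), the p40 chain shared by interleukins 12 and 23 (Il12b), transforming growth factor beta 1 (Tgfb1) and interleukin-16 (Il16). They were taken by name from a table of 25127 genes, whatever their values, and all 8 had a row in it. Tnf is an early inflammatory signal of activated macrophages and monocytes. Il6 and Osm are relatives that act through receptors with the shared chain gp130 (Il6st) and the transcription factor Stat3. Il10 restrains myeloid cells, Il23a and Il12b are the chains from which interleukin-23 is built, Tgfb1 is made as a latent precursor that must be activated outside the cell, and Il16 is made as a precursor that is cut to release a ligand of CD4. Messages of the first 6 of these genes are made after a stimulus and decay fast, whereas Tgfb1 and Il16 messages are common in resting leukocytes.

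The cells came from C57/Bl6 mice and were enriched for CD11b, an integrin chain of myeloid cells encoded by Itgam. Blood, bone marrow and spleen were taken from naive mice, and the same tissues and the tumor itself from mice bearing LLC (Lewis lung carcinoma) tumors at day 14. RNA and surface antibody tags were read in the same single cells with a 3′ chemistry, 1 library for each of the 7 combinations of tissue and state. The labels do not tell how many mice stood behind a library, nor which tissues came from the same mouse.

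The 7 libraries held 57 cells (tumor-bearing bone marrow) to 1917 cells (tumor tissue) and 617821 to 20844058 unique molecular identifiers (UMIs, each a counted RNA molecule). The median cell held 8841 UMIs in tumor tissue and 9827 to 12445 in the other libraries. Itgam stood at 257 to 561 counts per 1000000 UMIs (CPM) and had a UMI in 87.6% to 92.7% of the cells. Summed classical monocyte markers (8 genes) lay at 5368 to 11717 CPM, macrophage markers (10 genes) at 7718 CPM in tumor tissue and 1159 to 3337 elsewhere, and neutrophil markers (11 genes) at 373 CPM in tumor tissue and 1492 to 9016 elsewhere. Also higher in tumor tissue were the sums of conventional dendritic cell markers (10 genes, 1671 CPM against 247 to 1100), plasmacytoid dendritic cell markers (4 genes, 631 against 373 to 429) and platelet and megakaryocyte markers (4 genes, 286 against 0 to 8.69, with Gp9 at 0), and that of carcinoma and stromal markers was 17.2 against 2.71 to 5.22. Markers of T and NK cells (8 of 9 in the table) summed to at most 5.74 CPM, and those of mast cells and basophils (8 genes) to at most 2.61. B cell markers (6 genes) summed to 202 to 298 CPM outside the tumor and 44.0 in it. The authors' clusters split along the same line: 9 clusters (3, 5, 7, 8, 9, 10, 11, 13 and 17) took over 90% of their cells from tumor tissue, and the other 7 with counts (0, 1, 2, 4, 6, 12 and 16) nearly all of theirs from blood, bone marrow and spleen. Between tumor tissue and the other libraries, the library and the kind of cell therefore cannot be told apart, and the part of the marker differences in the results was not tested. A pair of cell barcodes occurred in more than 1 library.

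The start regions of 3 of the genes are shown because these genes stood for 2 of the kinds of behaviour seen below. They were Tnf and Il6, which had most of their UMIs in the tumor, and Tgfb1, which was present in nearly all cells of every library. Il16, which was low in the tumor, is not among them. Each line gives the 250 bases before the transcription start, from RefSeq on GRCm38.p6, in the direction of the gene. Capitals mark matches to 4 patterns, searched on both strands. The NF-kB pattern was GGGNNTTNCC, where N is any base. For AP-1 the letters were TGANTCA. The TATA box was searched as TATAAA. A GC box was GGGCGG, and reads as the reverse complement where it lies on the other strand. The marked matches do not overlap.
Tnf, chr17:35202008-35202257, minus strand: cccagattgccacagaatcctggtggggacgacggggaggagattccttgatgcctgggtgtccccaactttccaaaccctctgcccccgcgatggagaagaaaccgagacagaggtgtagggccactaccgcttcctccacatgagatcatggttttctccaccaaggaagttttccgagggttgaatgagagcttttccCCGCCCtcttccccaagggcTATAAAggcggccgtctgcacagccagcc
Il6, chr5:30012864-30013113, plus strand: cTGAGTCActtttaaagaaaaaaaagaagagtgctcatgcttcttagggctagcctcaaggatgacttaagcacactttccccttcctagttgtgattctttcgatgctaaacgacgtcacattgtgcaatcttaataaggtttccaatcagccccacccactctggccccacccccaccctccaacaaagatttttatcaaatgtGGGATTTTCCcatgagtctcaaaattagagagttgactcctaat
Tgfb1, chr7:25686752-25687001, plus strand: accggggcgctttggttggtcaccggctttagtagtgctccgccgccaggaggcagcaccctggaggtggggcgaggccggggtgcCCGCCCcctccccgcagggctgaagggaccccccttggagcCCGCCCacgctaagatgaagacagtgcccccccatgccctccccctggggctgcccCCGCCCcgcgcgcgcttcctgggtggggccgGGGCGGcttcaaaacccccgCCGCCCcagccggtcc
The Tnf window held a TATA box at position -29 and 1 GC box, and neither an NF-kB nor an AP-1 match. The Il6 window held an NF-kB match at -44 and an AP-1 match at -249, and neither a TATA box nor a GC box. In the Tgfb1 window there were 5 GC boxes and no TATA box, NF-kB or AP-1 match. Among all 32851 windows of this length, 4.11% held the NF-kB pattern, 6.75% the AP-1 pattern, 12.4% the TATA box and 32.7% the GC box. A pair of further patterns was searched and not marked. The STAT pattern TTCNNNGAA, held by 7.02% of all windows, was in none of the windows of these genes. The PU.1 pattern GAGGAA, held by 23.3%, occurred once in the Tnf window and in neither of the other windows printed. The Tgfb1 window was 75.2% G or C with 21 CpG dinucleotides, against 57.6% and 10 for Tnf, 42.8% and 3 for Il6, and medians of 52.4% and 6 over all windows. These are matches of letters only. Windows were found for 5 of the 8 genes (Tnf, Il6, Il12b, Tgfb1 and Il16). That of Il12b held none of the 4 marked patterns and 2 PU.1 matches, and of the 3 windows of Il16, 1 held an NF-kB match and another an AP-1 match.

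The ends of the messages differ as well. AU-rich elements in the 3′ untranslated region are bound by Zfp36 (tristetraprolin), which speeds decay, and Tnf is its textbook target. The heptamer TATTTAT was counted in the longest annotated 3′ untranslated region of each gene (GENCODE M21). It occurred 8 times in the 764 bases of Tnf, 5 times in the 657 of Il23a, 4 times in the 706 of Il10, 3 times in the 1017 of Osm, and once each in Il6 and Il12b. It was not found in the 135 bases of Tgfb1 or the 1064 of Il16. For scale, 0.0854% of genes with a 3′ untranslated region within 20% of the length of Tnf's held as many copies, 0.222% for Il23a, 0.706% for Il10 and 1.98% for Osm. A single copy was common: 36% of genes of Il6's length and 19.8% of Il12b's had at least 1. The 30 bases with the most copies are shown for the 6 genes that had any, with the heptamer in capitals. Where copies overlap they run together.
Tnf: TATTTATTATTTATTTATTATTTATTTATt
Osm: TATTTATaaggccTATTTATaatgtatatt
Il23a: TATTTATtcTATTTATaaggaattatgtat
Il10: TATTTATtacctctgatacctcagttccca
Il6: TATTTATtatttttatgaagtgtcacttga
Il12b: TATTTATtaatttatttctgcatttcacat
The 6 genes with a copy are those whose RNA was concentrated in the tumor, and the 2 without, Tgfb1 and Il16, are those that were common in blood, bone marrow and spleen. With 8 genes chosen by name this is a description of them and no more.

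Tnf lies on chromosome 17 (GRCm38, 35199381-35202007, minus strand; 4 exons). In blood its level was 7.57 CPM in the naive and 6.85 in the tumor-bearing library, in spleen 9.72 and 7.65, and in bone marrow 13 and 1.62 (1 UMI), against 83.2 CPM in the tumor. The tumor tissue library stood above the rest, and among the other 6 no neighbours in the order of levels had a ratio whose counting interval excluded 1. The ends of that order did differ, with tumor-bearing over naive bone marrow at 0.125-fold (0.00301 to 0.780). Tumor tissue was 12.1-fold above tumor-bearing blood (exact 95% counting interval 8.53 to 17.9), 10.9-fold above tumor-bearing spleen (8.07 to 15.0) and 51.4-fold above tumor-bearing bone marrow (9.22 to 2032, resting on the 1 UMI there). Such intervals cover counting error only. With 1 library in each group there was no test between groups and no measure of the spread between mice. A Tnf UMI was present in 35.5% of the 1917 tumor cells and in 1.75% to 8.17% of the cells of the other libraries. With every cell thinned to 5000 UMIs, the share was 22.3% in tumor tissue (1727 cells, 190 shallower ones left out) and 0 to 5.52% elsewhere, so the difference remained at equal depth.

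Osm (chromosome 11, 4236420-4241026, plus strand; 3 exons) had the widest gap of the 8 genes that could be expressed as a ratio in all 3 tumor comparisons. The tumor stood at 383 CPM. The naive and tumor-bearing libraries of blood were at 3.78 and 3.54 CPM, those of spleen at 2.26 and 3.13, and those of bone marrow at 1.95 and 4.86 (3 UMIs). Tumor tissue stood 108-fold above tumor-bearing blood (66.6 to 190), 122-fold above tumor-bearing spleen (77.4 to 207) and 78.9-fold above tumor-bearing bone marrow (27.0 to 382). Of 8069 Osm UMIs, 98.9% were in tumor tissue, where 79.9% of the cells had at least 1. Outside it, 1.96% to 5.26% of the cells did. After thinning to 5000 UMIs the shares were 66.7% and 0.69% to 3.57%. The part of free RNA from broken cells in the tumor share was not tested. In 8 cells of the tumor tissue library that the authors' clustering placed in clusters 0, 1, 2, 4, 6 and 12, 1 had an Osm UMI and none a Tnf UMI (median 6575 UMIs per cell), and all 8 had Tgfb1. Conversely, 11 cells of the other libraries lay in clusters 9 and 10, and 2 of them had an Osm UMI (median 12383 UMIs per cell). The share was 65.4% of all cells in cluster 9, 83.9% in cluster 10 and 3.20% of all cells outside the tumor. These cells were singled out after the values were seen, and are few.

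**Figure D1:**
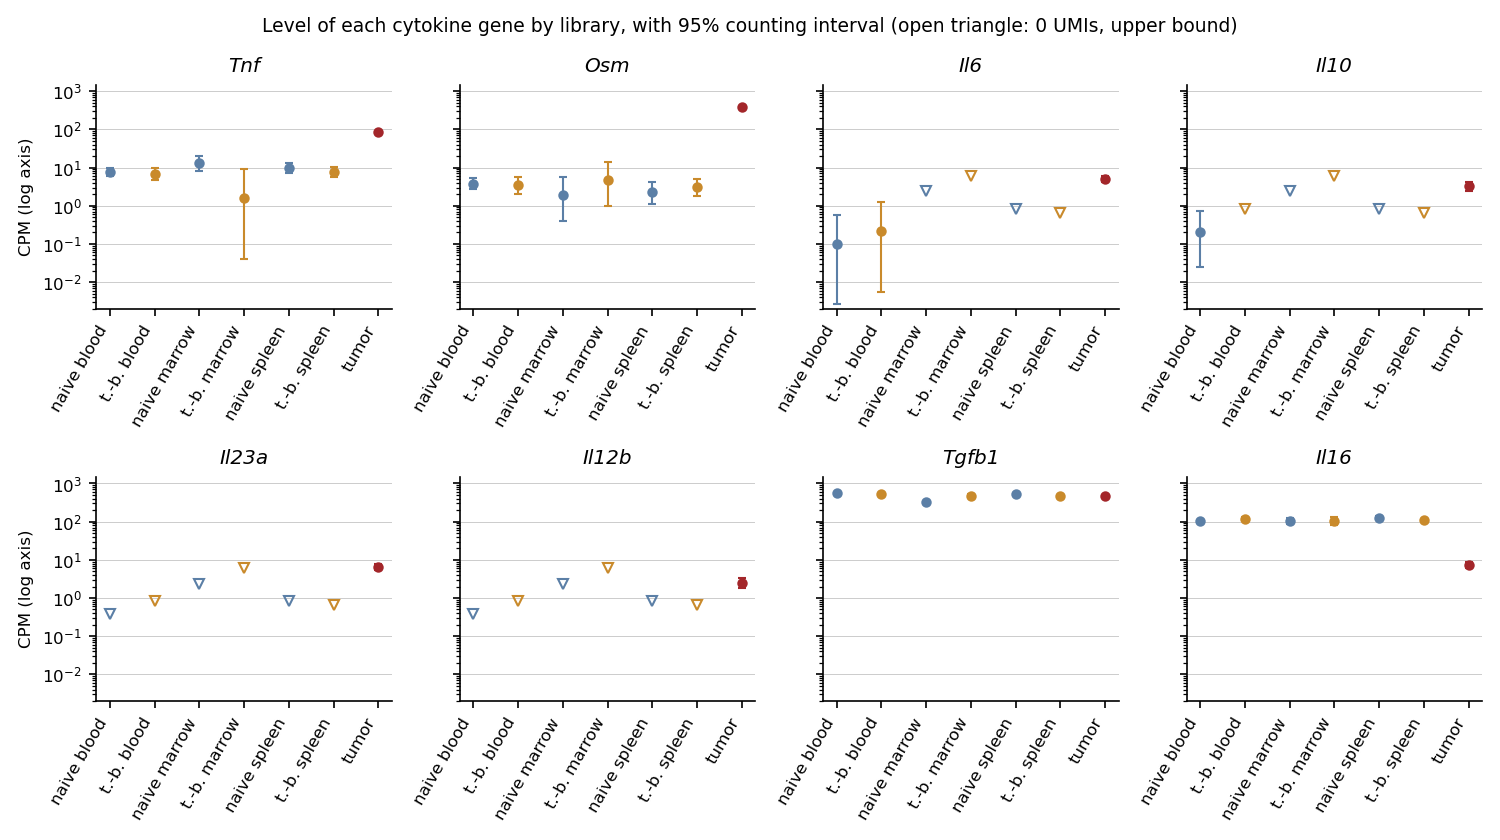
Level of each gene by library in counts per 1000000 UMIs (CPM, log axis), with exact 95% counting intervals; "t.-b." is tumor-bearing, blue is naive, orange tumor-bearing and red the tumor tissue, and an open triangle is the upper bound where a library had 0 UMIs. Tnf (83.2 CPM) and Osm (383 CPM) are highest in tumor tissue, Il16 is lowest there (7.29 CPM), and Tgfb1 lies between 325 and 560 CPM in all 7 libraries.

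Il6 (chromosome 5, 30013114-30019981, plus strand; 5 exons), Il10 (chromosome 1, 131019845-131024974, plus strand; 5 exons), Il23a (chromosome 10, 128296139-128298752, minus strand; 4 exons) and Il12b (chromosome 11, 44400063-44414033, plus strand; 8 exons) were rare. Tumor tissue held 105 of 107 Il6 UMIs (70 cells, 3.65% of its cells, 5.04 CPM), 67 of 69 Il10 UMIs (39 cells, 2.03%, 3.21 CPM), all 135 Il23a UMIs (22 cells, 1.15%, 6.48 CPM) and all 52 Il12b UMIs (5 cells, 0.261%, 2.49 CPM). The exceptions were 1 Il6 UMI in naive blood, 1 in tumor-bearing blood and 2 Il10 UMIs in naive blood. For Il23a and Il12b, 0 of 2373 cells outside the tumor had a UMI, which allows a share of up to 0.126%. This limits cells with a UMI and not cells that express the gene, since a rare message can be missed in a cell.

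Against the floor of 3 UMIs in tumor-bearing spleen, the ratio of tumor tissue was 12.4 for Il23a, 9.66 for Il6, 6.16 for Il10 and 4.78 for Il12b. The floor counts UMIs as independent molecules. Il12b had its UMIs in 0.261% of tumor cells, so 0 UMIs in 579 spleen or 354 blood cells can occur without a difference. Its values here are therefore no lower bounds. Against the floor in tumor-bearing blood the values were 9.77 for Il23a, 4.85 for Il10 and 3.76 for Il12b (lower limits 7.83, 3.83 and 2.95). The ratio of Il6 was 22.8 (4.0 to 909, from 1 UMI). In tumor-bearing bone marrow, with 0 UMIs of all 4, the floor was 4.86 CPM. There the values were 1.33 for Il23a and 1.04 for Il6, with lower limits of 1.07 and 0.829. Il10 and Il12b were below the floor even in tumor tissue. For Il6, Il10 and Il12b no difference was therefore detectable at this depth. None was shown for Il23a either, since its limit above 1 counts UMIs as independent molecules. They lay in 1.15% of tumor cells, and tumor-bearing bone marrow had 57 cells. Against naive blood, which had 2 Il10 UMIs, the ratio of Il10 was 15.7 (4.18 to 132). All 4 genes were below 20 CPM in every library, the minimum for calling a gene measured, so none was counted as higher or lower. A gene was considered too rare to rank among libraries or clusters below 30 UMIs or 20 cells with a UMI, and only Il12b, with 5 cells, was under that limit.

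How many cells carried the UMIs set how far these 4 genes could be read. A single cell held 31 of the 52 Il12b UMIs (59.6%), and 2 cells held 92.3%. For Il23a, 1 cell held 53 of 135 UMIs (39.3%) and 2 cells 55.6%, although the gene passed the limits for ranking. For Il10, 1 cell held 15 of 69 UMIs (21.7%), and for Il6 the highest cell held 4 of 107 (3.74%). Il6 was thus spread thinly, with 1 UMI in 65.3% of its positive cells, and Il23a and Il12b were dense in a few cells. The counting intervals assume independent molecules and are too narrow for Il10, Il23a and Il12b. They can be too narrow for the other genes as well: positive tumor cells held 5.21 Osm UMIs on average and up to 42.

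**Figure D2:**
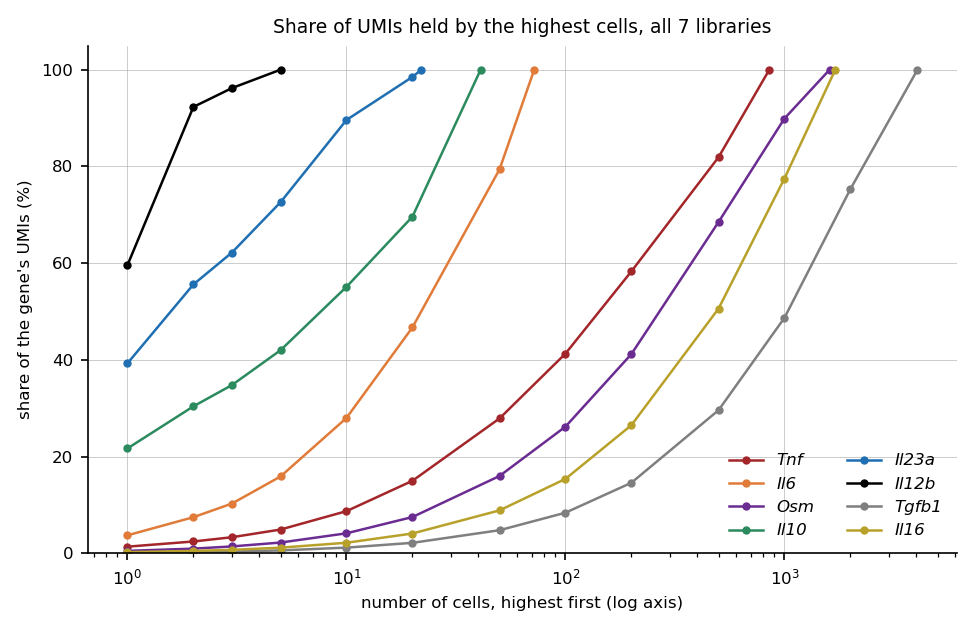
Share of a gene's UMIs over all 7 libraries (vertical axis, %) held by its highest cells, counted from the highest down (horizontal axis, number of cells, log scale); each line is 1 gene and ends at its number of cells with a UMI. Il12b reaches 92.3% with 2 cells and Il23a 55.6%, while 2 cells hold 0.979% of the Osm UMIs and 0.256% of the Tgfb1 UMIs.

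The cell with 31 Il12b UMIs belonged to cluster 11 and was deep (72949 UMIs). It also held 183 UMIs of the complement gene C1qa, 10 of the migration receptor Ccr7, 5 of Fscn1, 41 of H2-Eb1, 14 of Tnf and 3 of Il6. The cell with 17 belonged to cluster 3, was deep too (22113 UMIs, cluster median 8774), and held 51 UMIs of Ccr7 and 49 of Fscn1, both genes of migratory dendritic cells. Of other dendritic cell markers it held 7 UMIs of Flt3, 4 of H2-Eb1 and 0 of Cd209a, and it held 42 of C1qa. Its kind therefore cannot be told, and whether it was a doublet was not tested. The remaining 3 cells had 2, 1 and 1 Il12b UMIs. That with 2 belonged to cluster 17 and held 32 UMIs of Ccr7, 8 of Fscn1, 17 of H2-Eb1, 0 of Flt3 and 0 of C1qa. Those with 1 held 0 of Ccr7 and 0 of Fscn1. None of the 5 held an Il23a UMI, and none of the 22 Il23a cells an Il12b UMI, so no cell had UMIs of both chains of interleukin-23. With so few positive cells among 1917, this cannot tell whether cells make both, and a message without a UMI can still be present. The partner chain of Il12b in interleukin-12, Il12a, had 6 UMIs over all cells. The 3 cells with the most Il23a (53, 22 and 9 UMIs) belonged to cluster 7 and held 249, 298 and 178 UMIs of Il1b and 0 of Ccr7.

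Tgfb1 (chromosome 7, 25687002-25705077, plus strand; 7 exons) was present in nearly every cell. Its level in the naive and the tumor-bearing library was 560 and 533 CPM in blood, 543 and 481 in spleen, and 325 and 463 in bone marrow, and it was 479 CPM in the tumor. A UMI was present in 90.6% to 98.9% of the cells of each library. The order ran from naive blood down to naive bone marrow, and the neighbours whose ratio had an interval that excluded 1 were tumor-bearing blood over tumor-bearing spleen (1.11, 1.05 to 1.17) and tumor-bearing over naive bone marrow. Tumor tissue over tumor-bearing blood was 0.897-fold (0.858 to 0.938), over tumor-bearing spleen 0.995-fold (0.954 to 1.04) and over tumor-bearing bone marrow 1.03-fold (0.919 to 1.17). The blood ratio moved to 0.975 without clusters 11 and 13, and the spleen ratio was 0.938 when scaled without mitochondrial, ribosomal-protein and haemoglobin genes and 1.08 without clusters 11 and 13, so the direction against spleen depended on these choices.

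Il16 (chromosome 7, 83642825-83745726, minus strand; 19 exons) ran opposite to Tnf and Osm. It was at 7.29 CPM in the tumor. Blood had 105 CPM in the naive and 119 in the tumor-bearing library, spleen 127 and 109, and bone marrow 104 and 107. No neighbours among the first 6 had a ratio whose interval excluded 1, and all 6 stood above the tumor. Further apart in the order, the interval of naive spleen (117 to 138 CPM) lay above that of naive blood (98.9 to 112). Tumor tissue was 16.3-fold below tumor-bearing blood (13.6 to 19.7), 15.0-fold below tumor-bearing spleen (12.5 to 18.0) and 14.6-fold below tumor-bearing bone marrow (10.8 to 19.7). The share of cells with a UMI was 58.7% to 72.3% outside the tumor and 6.57% in it. At 5000 UMIs per cell these became 33.9% to 46.3% and 3.01%. Lymphocytes are a known source of Il16. In cells without any UMI of the T and NK cell markers the level was 104 CPM in naive blood (771 of 814 cells) and 116 in tumor-bearing blood, and in cells without any UMI of the B cell markers 102 CPM in both (144 and 92 cells). The gene overlaps Stard5 and 2310044K18Rik on the other strand and the pseudogene Phgdh-ps1 on its own. Whether reads were counted by strand is not stated in the labels or headers used, and the part of these genes in the Il16 UMIs was not tested.

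Counted over the group, 4 of the 8 genes (Tnf, Osm, Tgfb1 and Il16) had enough UMIs to be called measured in the comparisons with tumor tissue: at least 30 UMIs in both libraries together and 20 CPM in one. By a 2-fold limit, tumor tissue was above tumor-bearing blood for 2 of the 4 and below it for 1, where 10.9% of all 5648 measured genes were above and 9.44% below. Against tumor-bearing spleen the counts were the same, beside 10.7% higher and 12% lower. Against tumor-bearing bone marrow they were again the same, beside 12.2% and 12.1%. The 3 comparisons share the tumor tissue library.

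**Figure D3:**
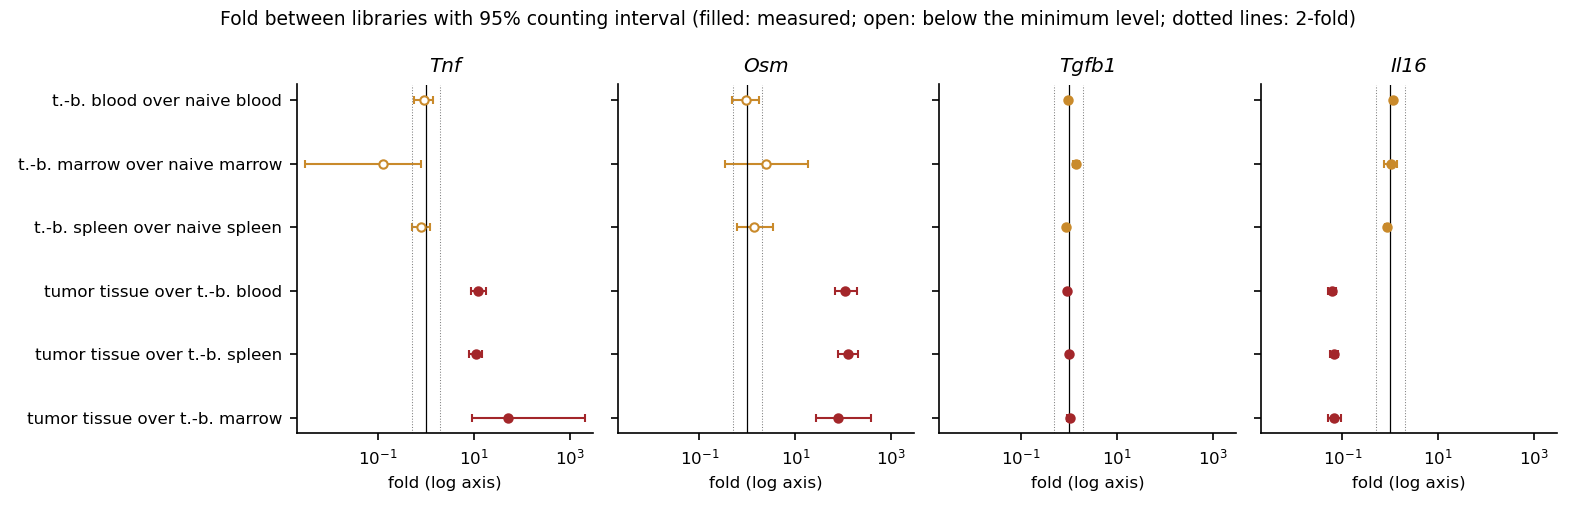
Fold between libraries (horizontal, log axis) with exact 95% counting intervals for the 4 genes with enough UMIs; "t.-b." is tumor-bearing, "marrow" bone marrow, red points compare tumor tissue and orange points the states, open points were below the minimum level, and dotted lines mark 2-fold. Tnf and Osm lie right of 2-fold and Il16 left of it in all 3 tumor comparisons, and no filled orange point passes 2-fold.

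Between tumor-bearing and naive mice few of the genes could be judged, and some ratios under 2-fold had intervals that excluded 1. Only Tgfb1 and Il16 were measured in blood, bone marrow and spleen, and none of the 2 passed 2-fold in any tissue. Of all measured genes 0.566% were higher and 0.132% lower in blood, 1.34% and 1.89% in bone marrow, and 0.332% and 0.0553% in spleen. Tgfb1 in tumor-bearing over naive was 0.953-fold in blood (0.908 to 0.999), 1.43-fold in bone marrow (1.23 to 1.65) and 0.885-fold in spleen (0.838 to 0.935). Il16 was 1.13-fold in blood (1.02 to 1.26), 1.02-fold in bone marrow (0.756 to 1.37) and 0.859-fold in spleen (0.765 to 0.964). Tnf, below the minimum level, was 0.905-fold in blood (0.575 to 1.39) and 0.787-fold in spleen (0.505 to 1.23), and had 1 UMI in tumor-bearing against 20 in naive bone marrow (0.125-fold, 0.00301 to 0.780). Osm was 0.935-fold in blood (0.485 to 1.72), 2.49-fold in bone marrow from 3 UMIs in each library (0.334 to 18.6) and 1.38-fold in spleen (0.606 to 3.36).

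Within single clusters with at least 20 cells in both states, the ratios of Tgfb1 and Il16 stayed under 1.5-fold. In cluster 0, Tgfb1 was 0.849-fold in blood (0.759 to 0.948) and 1.33-fold in bone marrow (1.06 to 1.65). In spleen it was 0.808-fold in both cluster 1 (0.731 to 0.892) and cluster 4 (0.694 to 0.940), and 1.01-fold in cluster 2 (0.885 to 1.15). In cluster 2 of blood it was 1.15-fold (1.02 to 1.29). The largest Il16 ratio was 1.44-fold in cluster 4 of blood (1.11 to 1.86). The direction of Tgfb1 thus differed between clusters of the same tissue, and the spread between mice is unknown.

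Across clusters, Tnf split the tumor cells more than Osm did. The clusters were made by the authors from the genes of these cells, so the cluster values are given as a description. Among the 9 tumor-led clusters, Tnf stood at 114 CPM in cluster 8, 102 in cluster 11, 101 in cluster 3, 89.95 in cluster 13, 69.6 in cluster 10, 67.3 in cluster 5, 55.6 in cluster 17, 55.1 in cluster 7 and 25.5 in cluster 9. Between neighbours, only the last step, cluster 7 over cluster 9 (2.16, 1.54 to 3.07), was beyond counting error. Cluster 13, in the middle of the order, rested on 6 UMIs (33.0 to 196 CPM). Apart from it, the intervals of clusters 8, 11 and 3 (92.1 CPM or more) lay wholly above those of clusters 10, 5, 17 and 7 (83.1 or less). Of the other clusters, cluster 4 was highest (16.2 CPM), 1.73-fold above cluster 1 (1.19 to 2.54), and the others lay between 3.63 and 9.34 CPM. By share of cells, cluster 11 led with 74.6%, ahead of cluster 8 with 57.0%, but its cells were the deepest (median 29673 UMIs, against 9451 in cluster 8). At 5000 UMIs per cell the order turned, to 26.9% in cluster 11 and 36.3% in cluster 8, and cluster 6, whose cells had the lowest Osm level, had Tnf in 1.70%.

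Osm was at 513 CPM in cluster 5, 494 in cluster 7, 442 in cluster 10, 435 in cluster 13, 406 in cluster 8, 388 in cluster 3, 282 in cluster 11, 236 in cluster 9 and 183 in cluster 17. The steps from cluster 7 to 10, 3 to 11, 11 to 9 and 9 to 17 exceeded counting error, and none was above 1.38-fold. Below them came a gap of 21.2-fold (8.83 to 66.6) to cluster 12, the highest of the other clusters at 8.64 CPM, and the lowest was cluster 6 at 1.08. Every tumor-led cluster therefore carried Osm, in 47.5% (cluster 13, median 1478 UMIs per cell) to 91.8% (cluster 11) of its cells. Thinned to 1000 UMIs, a depth chosen after the data were seen, cluster 13 had Osm in 30.6% of 36 cells and the whole tumor library in 29.5%.

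Tgfb1 reached 664 CPM in cluster 7 of the tumor and 650 in cluster 1 of blood and spleen, and was lowest in cluster 11 (322) and cluster 13 (135, from 9 UMIs). Both kinds of cluster thus spanned most of the range. Il16 was between 93.8 and 122 CPM in the 7 clusters led by the other libraries, and between 0 and 16.0 CPM in the tumor-led ones. Among the 7, no neighbours were apart beyond counting error, but the interval of cluster 6 (111 to 134 CPM) lay above that of cluster 4 (89.8 to 110). Cluster 9, which had the highest value of the tumor-led clusters, was at 11.4 CPM in its cells from tumor tissue alone, since 6 of its 10 cells from other libraries had an Il16 UMI.

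**Figure D4:**
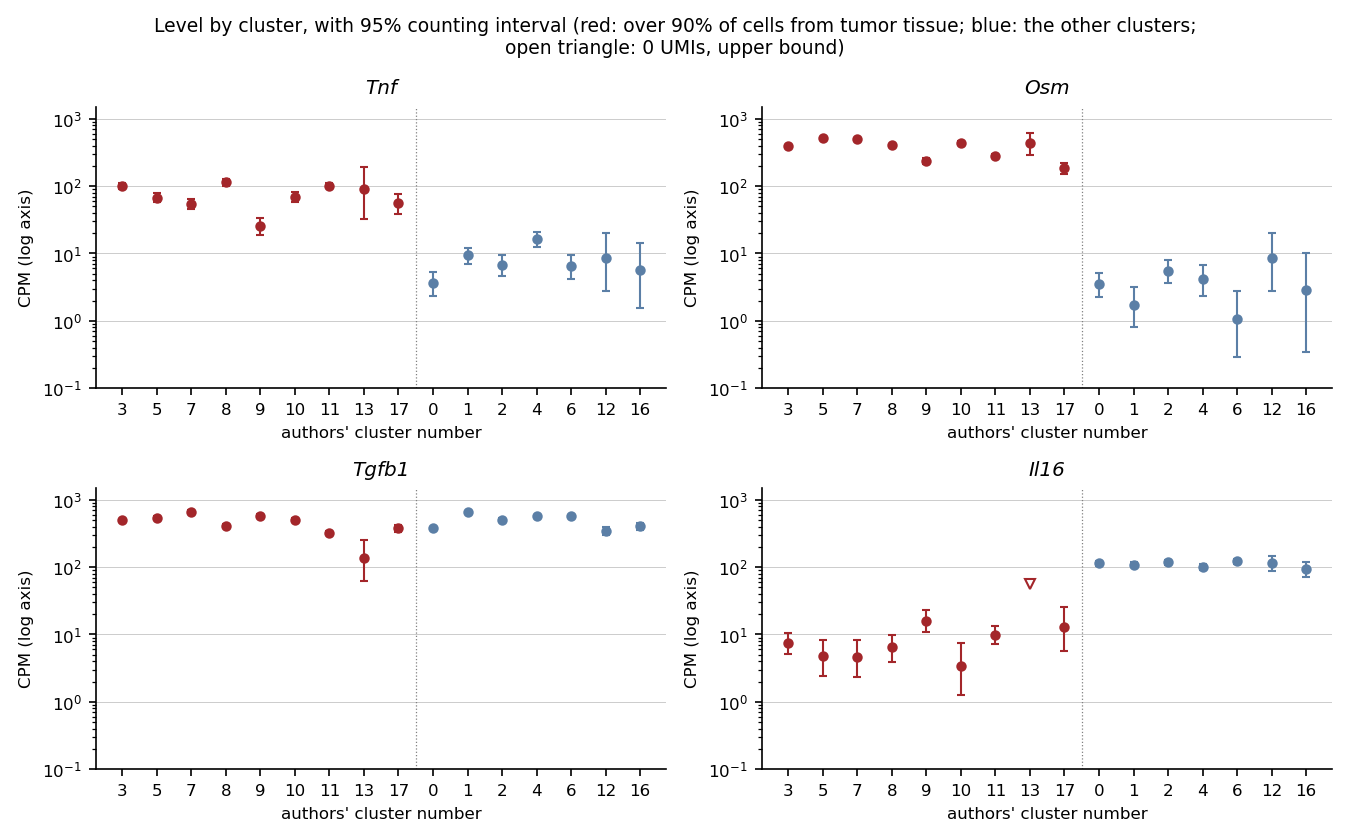
Level by authors' cluster in CPM (log axis) with exact 95% counting intervals; red clusters took over 90% of their cells from tumor tissue, blue ones did not, and an open triangle is the upper bound at 0 UMIs. Osm is at 183 CPM or more in every red cluster and at 8.64 or less in every blue one, Il16 runs the other way, Tnf varies from 25.5 to 114 CPM among the red clusters, and Tgfb1 does not separate the colours.

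Of the rare genes, Il6 and Il10 each had UMIs in clusters 3, 5, 7, 8, 9, 10, 11 and 13 of the tumor-led ones, and whether the genes differed in their clusters was not tested. Il6 was highest in cluster 10 (27 UMIs in 21 of 199 cells, 15.5 CPM, 10.6% of cells), and had 1 UMI in the 429 cells of cluster 3 and 0 in the 55 of cluster 17. Neighbouring clusters between cluster 10 and cluster 11 did not differ beyond counting error. Further apart in the order, the interval of cluster 10 (10.2 to 22.6 CPM) lay above those of clusters 7, 8 and 11 (9.88 or less). Il23a was at 41.2 CPM in cluster 7 (98 UMIs in 8 of 285 cells), 11.7-fold above cluster 11 (6.74 to 21.6), an interval that is too narrow since 3 cells held 84 of the 98. Il10 had 26 UMIs in 8 of the 134 cells of cluster 11, 15 of them in a single cell. No neighbours in its order differed beyond counting error, which does not compare clusters further apart. Il12b was not ranked.

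Cells with a UMI of 1 gene were compared for the others within tumor tissue. Osm was present in 86.2% of the 680 Tnf-positive cells and 76.5% of the Tnf-negative ones, and at 5000 UMIs per cell in 69.6% and 65.9%. Tnf was present in 57.1% of the 70 Il6-positive cells against 34.7% of the others. After thinning it was in 7 of 29 (24.1%, 10.3 to 43.5) against 22.3%. With 29 cells the interval is too wide to tell whether the gap remained at equal depth. For Il23a the gap was 17 of 22 cells with Tnf against 35.0%, and 7 of 12 against 22.0% after thinning, on very few cells. Il6 and Il10 shared 1 cell (Il10 in 1.43% of the Il6-positive cells and 2.06% of the others), and Il10 and Il23a shared none. With 39 Il10 and 22 Il23a cells, such counts cannot tell whether the genes avoid each other.

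Genes of the most similar pattern were ranked by Pearson r of log2(CPM + 1) over 34 units, each 1 cluster in 1 library with at least 20 cells, among 7193 genes. Units of the same library share depth and handling, and the split into tumor and other libraries is common to all of them, so r is a description. Nearest to Tnf were the chemokine gene Cxcl16 (0.93), Nfkbid, an IkB-family regulator (0.91), Skil (0.91), Rgl1 (0.91) and Cd83 (0.90). Nearest to Osm were Lilr4b (0.95), Thbs1 (0.95), Litaf (0.95), Ier3 (0.95) and the chemokine gene Ccl4 (0.95). Il16 was nearest to Mettl7a1 (0.97), Tifab (0.95), Trmt12 (0.95), Grcc10 (0.95) and Clec2i (0.94), and had r of -0.93 with Osm. Tgfb1 had lower values, with Cdc42ep2 (0.86) and the kinase gene Lyn (0.82) first, and r of -0.29 with Osm. For the rare genes the values rest on few UMIs: Ccl8 (0.87) and Neat1 (0.87) were near Il6, Ccl8 (0.95) and Akr1b8 (0.95) near Il10, and Higd1a (0.79) near Il23a.

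The genes that act with these cytokines were counted in 5 lists for tumor tissue over tumor-bearing blood. Of the list of mRNA decay and feedback genes, all 18 were measured, 13 were at least 2-fold higher and 0 lower (10.9% and 9.44% of all measured genes), with a median log2 ratio of 2.08 against -0.13 over all measured genes. The largest ratios were those of the phosphatase genes Dusp1 (12.3-fold, 11.3 to 13.4) and Dusp2 (10.7-fold, 9.15 to 12.7), the NF-kB inhibitor Tnfaip3 (12.2-fold, 9.07 to 16.8), the Tgfb1 feedback inhibitor Smad7 (9.23-fold, 6.72 to 13), Tnip3 (8.91-fold) and the ribonuclease gene Zc3h12a (7.26-fold). Zfp36, whose protein binds the AU-rich elements printed above, was at 66.4 to 276 CPM outside the tumor and 764 in it. Of its relatives in the list, Zfp36l1 was at 3.24 to 29.0 CPM outside the tumor and 138 in it. Zfp36l2 went the other way, with 452 to 659 CPM outside and 436 in the tumor. Against tumor-bearing spleen the list had 13 higher and 0 lower, beside 10.7% and 12% of all measured genes. Against tumor-bearing bone marrow it had 14 and 0, beside 12.2% and 12.1%.

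Of 29 other cytokine genes 7 were measured, 5 were higher and 1 lower, beside 10.9% and 9.44% of all measured genes. Il1b, the interleukin-1 beta gene, was 27.2-fold higher (25.6 to 29.1), reaching 5873 CPM, and Tnfsf9 30.5-fold (17.8 to 57.3). Il1a had 0 UMIs in tumor-bearing blood and 23.1 CPM in tumor tissue. Il15 (2.26-fold) and Il18 (2.11-fold) were higher by little, and Ltb, a lymphotoxin gene, was 10.9-fold lower. The lymphocyte cytokine genes Il4, Il13, Il17a, Il21 and Il22 had 0 UMIs in all cells.

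Among 18 receptor genes 11 were measured, with 2 higher (Cd9, a tetraspanin, 4.69-fold; Il10rb 2.12-fold) and 2 lower: Tnfrsf1b, a receptor of Tnf (2.11-fold), and Il6ra, the Il6 receptor (2.06-fold). With 10.9% of all measured genes higher and 9.44% lower, counts this small are no result about the receptors. Osmr and Il23r, for the specific receptors of Osm and interleukin-23, had a UMI in 0 of the 4290 cells, which allows a share of cells with a UMI of up to 0.0699% and sets no limit on cells that express them at a low level. The antibody against IL23R, in a panel of 47, gave a median of 67.2 to 97.9 tags per 10000 of a cell's tags outside the tumor and 122 in tumor tissue. Tags of CD9 went from 43.0 to 64.6 outside the tumor to 67.8 in it. By cluster, both were highest in cluster 13 (220 for IL23R and 106 for CD9), whose cells had the lowest median of RNA UMIs (1478). The part of unspecific antibody binding was not tested.

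For release and activation 8 of 13 genes were measured, and 1 was higher and 0 lower, a count near the 10.9% of all genes that were higher. It was Thbs1, thrombospondin-1, which can activate latent Tgfb1, at 87.3-fold (74.4 to 103). Adam17, which sheds Tnf, lay between 61.2 and 87.3 CPM in all 7 libraries, and Nrros, which tethers latent Tgfb1 on myeloid cells, between 164 and 239. Of 25 signalling and transcription factor genes 23 were measured, with 3 higher (Nfil3 4.39-fold, Maf 4.32-fold and the NF-kB subunit Rel 3.0-fold) and 0 lower. Their median log2 ratio was -0.19. The share higher was again near the 10.9% of all genes, and 9.44% of all genes were lower. Between states, no gene of the 5 lists was called in blood or spleen. In bone marrow, where 1.89% of all measured genes were lower, 3 genes of the lists were lower in tumor-bearing mice, each on 9 to 11 UMIs in that library. They were Rel (2.22-fold, 1.16 to 4.69), Rc3h1 (2.13-fold, 1.07 to 4.69) and Maf (2.0-fold, 0.968 to 4.66), and the interval of Maf included 1.

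**Figure D5:**
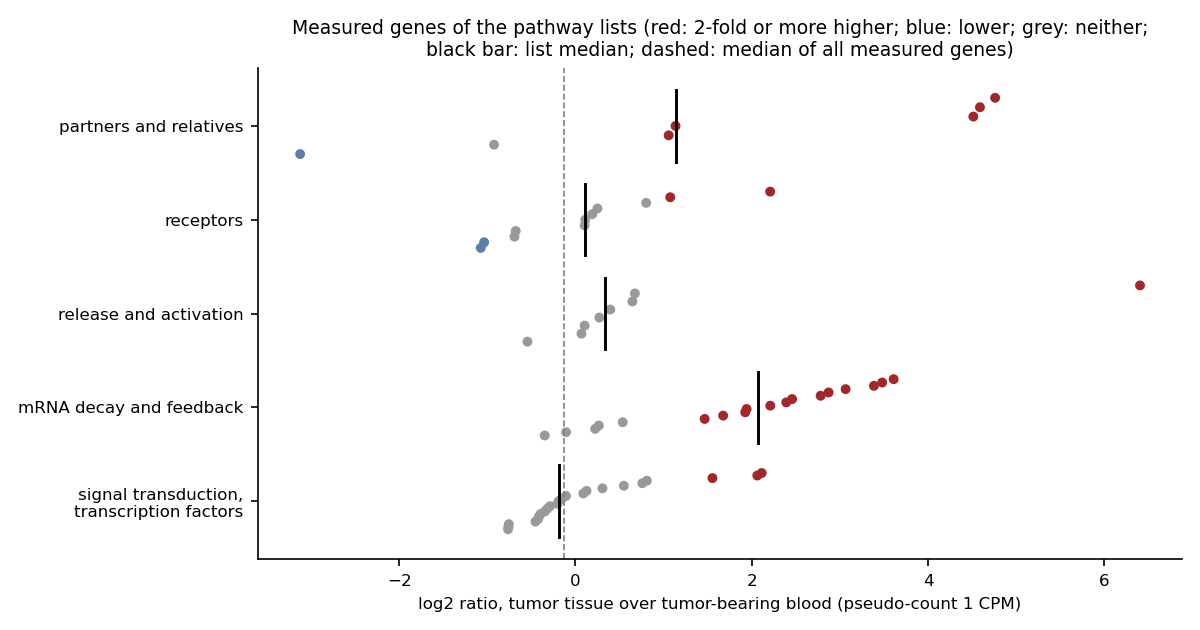
Log2 ratio of tumor tissue over tumor-bearing blood (pseudo-count 1 CPM) for each measured gene of the 5 lists; red is at least 2-fold higher, blue at least 2-fold lower, grey neither, the black bar is the list's median and the dashed line the median of all measured genes (-0.13). The decay and feedback genes have 13 red points and a median of 2.08, and the signalling genes a median of -0.19.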

How the data were processed

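The deposited tables hold raw counts: UMIs of 25127 genes in 4290 cells, tags of 47 antibodies in the same cells, and a list of 4527 cells with library and cluster. The 237 listed cells without counts were not used, nor were the deposited normalized values. Per the submitters' processing notes, Cell Ranger was used with mm10. The sources used here give neither its version nor the gene annotation or filters on cells. No further filter was applied and no doublet caller was run.

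UMIs were summed per library or cluster and scaled to CPM. Levels carry exact Poisson intervals, ratios exact conditional binomial intervals and shares exact Clopper-Pearson intervals, all at 95% (scipy 1.17.1, numpy 2.4.6). The code was tested on simulated data. No group had more than 1 library, so nothing was tested between groups. Folds and share limits against 0 UMIs used a floor of 3. Log2 ratios used a pseudo-count of 1 CPM. Thinning drew 5000, 2000 or 1000 UMIs per cell. Named list genes were those past 2-fold against tumor-bearing blood or between states, up to 6 per list by log2 ratio. Zfp36, Zfp36l1, Zfp36l2, Adam17, Nrros, and genes with 0 UMIs were named after their values were seen, as were genes of the single cells described. The 5 genes of most similar pattern left out unnamed models and sex-linked, immunoglobulin, haemoglobin, ribosomal-protein and mitochondrial genes. The members and the lists were chosen with earlier results of these data known. Promoters were read from RefSeq and gene positions and transcripts from GENCODE M21.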

Additional observations from a re-analysis of the deposited data

Results flagged for a closer look

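The ratio of tumor-bearing over naive pointed in opposite directions in different tissues for 2 genes. Tgfb1 was 1.426-fold in bone marrow, and 0.9525-fold in blood and 0.8853-fold in spleen. Il16 was 1.132-fold in blood and 0.8591-fold in spleen. All 5 values were under 2-fold, each tissue had 1 library per state, and the difference between tissues was not tested.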

How the results depend on the processing

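The 18 ratios of measured genes were recomputed with every cell weighing the same, with cells thinned to 5000 UMIs, without the cell holding most UMIs of the gene, without the 2% of cells with most UMIs (possible doublets), without clusters 11 and 13, and scaled without mitochondrial, ribosomal-protein and haemoglobin genes. All 107 values that could be computed gave the same call, and 98 lay inside the counting interval of the reported value. The other 9 were ratios of Tgfb1 in tumor tissue, between 0.851 and 0.975 against tumor-bearing blood and between 0.938 and 1.08 against tumor-bearing spleen. Thinning left 0 Tnf UMIs in tumor-bearing bone marrow, so that ratio had no value there. The counts of 2 genes higher and 1 lower in tumor tissue held under each of these and with 1.5-fold in place of 2-fold. With no minimum level they held against tumor-bearing spleen and bone marrow, and against tumor-bearing blood 3 genes were higher (Il6, from 1 UMI in blood, was added), beside 11.5% of all genes. With no minimum level 1 gene (Il6, from 1 UMI in each library) was higher in tumor-bearing blood, 1 (Osm) higher and 1 (Tnf) lower in tumor-bearing bone marrow, where 0 were counted otherwise, beside 6.57% of all genes higher in blood and 8.01% higher and 6.8% lower in bone marrow. These calls were made by the construction of that choice, which admits genes with 1 UMI per library. No paired analysis was possible because each group had 1 library. Depth limited tumor-bearing bone marrow most, where 57 cells put the floor at 4.86 CPM.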
